A study of Homo sapiens with 24 samples.

Results

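Tubulin genes encode the subunits of microtubules, and 10 of them were followed here through 2 human cancer cell lines treated with herbal extracts. The members were fixed by symbol, each matched through its Ensembl gene identifier to 1 row of the deposited table: TUBA1A, TUBA1B and TUBA1C of the α-tubulin genes, TUBB, TUBB2A, TUBB2B, TUBB3, TUBB4B and TUBB6 of the β-tubulin genes, and the γ-tubulin gene TUBG1. They are 10 of 14585 genes in that table. A549, a lung carcinoma line, and Huh7, a hepatocellular carcinoma line, both labelled WT, were each sampled as a control and after extracts of Pulsatilla chinensis, Bupleurum chinense or Polyporus umbellatus, with 3 RNA sequencing libraries per group and 24 in all. Despite the shared label, the paper describes A549 as wild-type for p53 and Huh7 as carrying a p53 mutation. The dose and duration of the sequenced cultures and the content of the control medium were not given in the sources used here, and neither was whether the 3 libraries came from separate cultures, so that p-values measure the spread between libraries, which may be technical. Each line stands for 1 established cell line and not for a tissue.

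Microtubules are hollow polymers of α- and β-tubulin pairs, while γ-tubulin sits in ring complexes that start their growth. Human cells hold several α and β genes, called isotypes, whose proteins differ mostly in the acidic tail at the carboxyl end. TUBA1B and TUBB are the common forms of dividing cells, and TUBA1A and TUBB3 are best known from neurons, with TUBB3 also expressed in many carcinomas. When free tubulin accumulates, the mRNAs of α- and β-tubulin being translated are degraded: the adaptor TTC5 recognises the first residues of the emerging protein and recruits SCAPER and the CCR4-NOT deadenylase complex. This is background and was not measured in these samples.

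The first codons are shown because the residues they encode divide the members into their families. In the α and β genes TTC5 reads this stretch of the protein. The sequences are coding starts of 12 bases from GENCODE v44 transcripts on GRCh38, with the 3 codons after the start codon in capitals.
TUBA1A, TUBA1B and TUBA1C: atgCGTGAGTGC
TUBB and TUBB4B: atgAGGGAAATC
TUBB3 and TUBB6: atgAGGGAGATC
TUBB2A: atgCGCGAGATC
TUBB2B: atgCGTGAGATC
TUBG1: atgCCGAGGGAA
The α genes shared 1 start, the 6 β genes had 4 different ones that encode the same residues, and TUBG1 had another.

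The other end of the coding sequence is shown to mark the bases that recur in no other gene over the length of a short stretch. In the last 60 coding bases of 5 of them, capitals mark bases that lie in at least 1 stretch of 31 bases found in the transcripts of no other gene, pseudogenes included.
TUBB, chr6:30724338-30724397, plus strand: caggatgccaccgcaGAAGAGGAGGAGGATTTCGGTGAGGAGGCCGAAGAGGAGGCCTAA
TUBB2A, chr6:3153863-3153922, minus strand: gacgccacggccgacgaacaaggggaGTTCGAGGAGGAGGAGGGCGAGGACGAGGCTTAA
TUBB2B, chr6:3224751-3224810, minus strand: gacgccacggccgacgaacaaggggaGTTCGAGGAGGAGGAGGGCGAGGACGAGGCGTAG
TUBB3, chr16:89935745-89935804, plus strand: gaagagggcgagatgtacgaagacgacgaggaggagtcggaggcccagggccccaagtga
TUBB4B, chr9:137243497-137243556, plus strand: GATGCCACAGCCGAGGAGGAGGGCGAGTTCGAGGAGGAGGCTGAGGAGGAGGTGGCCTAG
The coding sequences of TUBA1A and TUBA1B were 97.2% identical, those of TUBA1B and TUBA1C 96.8%, and those of TUBB2A and TUBB2B 98.1%, while other β pairs had 80.9% to 87.7% identity.

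Over whole transcripts, the share of 31-base stretches found in no other gene was 93.2% for TUBB6, 79.3% for TUBB4B, 66.5% for TUBB, 62.3% for TUBA1C, 60.3% for TUBG1, 43.7% for TUBB2B, 40.7% for TUBA1A, 31% for TUBB2A and 27.8% for TUBA1B. TUBB3 had 6%, since 92.8% of its stretches recur in another protein-coding gene annotated over it, which has no row in the deposited table. All TUBB3 values below may therefore hold reads of both genes, or lack reads that were assigned to the other. TUBG1 shared 36.6% of its stretches with TUBG2. The counts of TUBA1A, TUBA1B and TUBA1C, and those of TUBB2A and TUBB2B, rest on how the authors' quantifier divided shared reads and are uncertain to that extent. TUBA1A (chromosome 12, 49184686 to 49189080, minus strand) also overlaps the start of TUBA1C (49188736 to 49274600, plus strand), and whether strand was used in counting was not stated. TUBB lies in the major histocompatibility region (chromosome 6, 30717435 to 30725538), of which Ensembl also carries alternative haplotype sequences, and a loss of reads to such copies was not tested.

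The libraries held 6803648 to 24345364 estimated counts. Levels are given as CPM, counts relative to the library's total after scaling by the trimmed mean of M values (TMM), and as CPM per kilobase of the main transcript where genes are compared with each other. The 10 hepatocyte genes that check the Huh7 label summed to 21620 to 22230 CPM in Huh7 control libraries and 14.2 to 18.7 CPM in A549 control libraries, with APOA2 at 0 there. With P. chinensis in Huh7 the sum was 12980 to 13740 CPM, with B. chinense 19130 to 19710 and after P. umbellatus 19410 to 24000, and its part in the tubulin changes was not tested. The A549 list, 10 of whose 12 genes were in the table, summed to 18190 to 18820 CPM in A549 controls and 5747 to 5998 CPM in Huh7 controls, with KRT7 at 0 in the latter. The surfactant gene SFTPB of alveolar cells had 9 to 15 counts in A549 controls. SFTPB and EPCAM of this list were lower in A549 controls (means of 1.28 and 4.08 CPM) than in Huh7 controls (3.24 and 8 CPM). The other genes of the list in the table were higher in A549. The 3 P. umbellatus libraries of Huh7 stood apart: the slope of the log2 level against the control mean, per 10 percentage points of transcript GC content, was -0.324, -0.715 and -0.22 in replicates 1 to 3, while the other 9 Huh7 libraries lay between -0.054 and 0.006. Replicate 2 had the steepest slope. It differed from replicates 1 and 3 by 15.56 and 20.95 times the count variance that sampling gives, against 5.79 times between those replicates and 2.97 to 3.44 times within the other Huh7 groups.

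**Figure D1:**
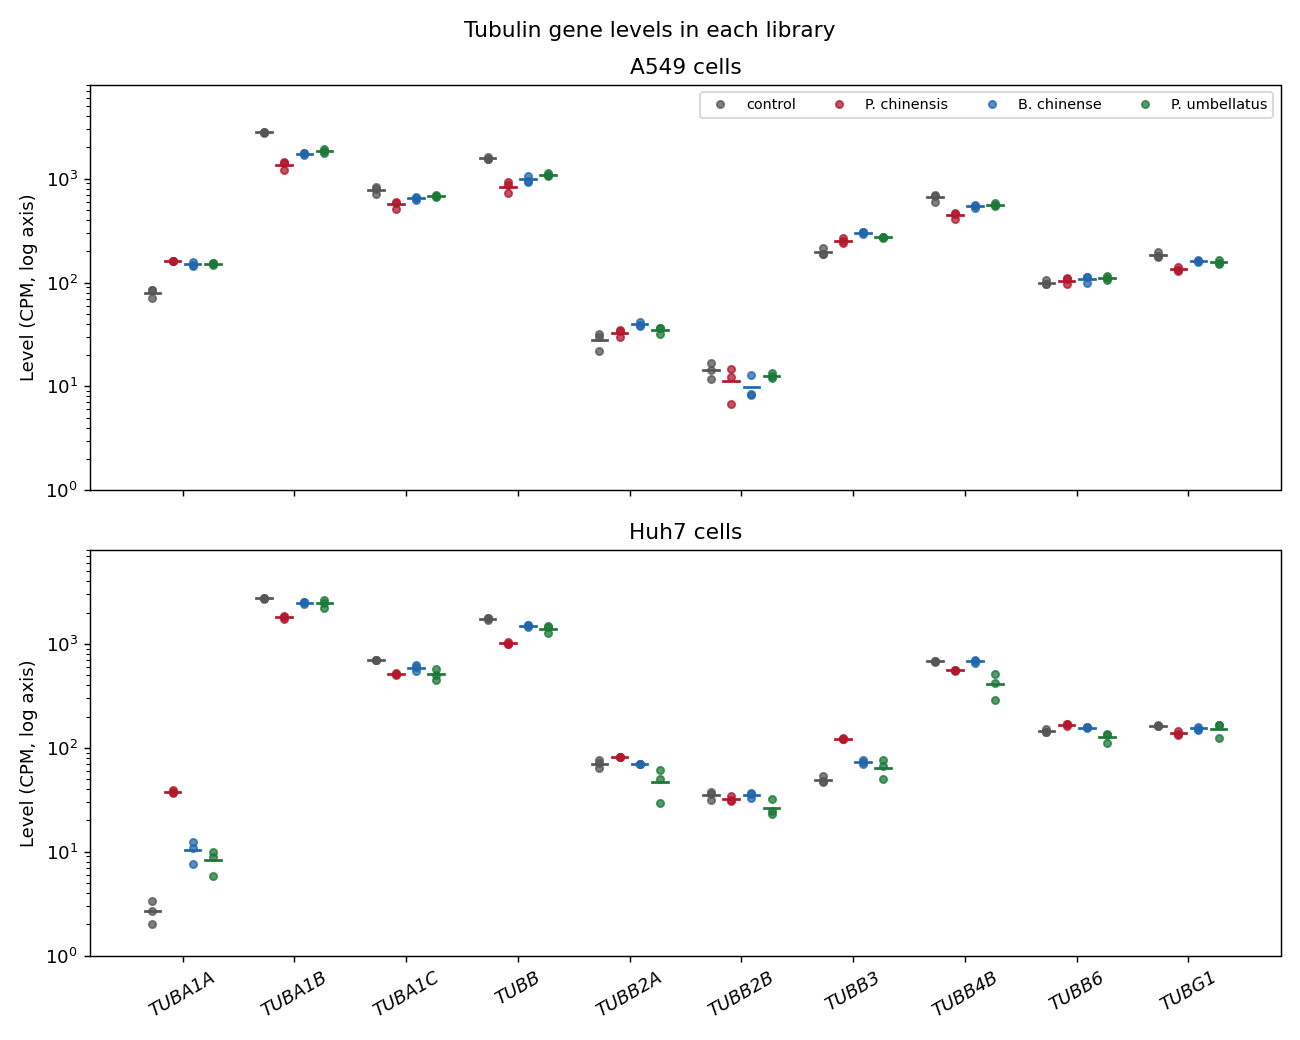
Level of the 10 tubulin genes in each of the 24 libraries, in CPM on a log axis, for A549 cells (top) and Huh7 cells (bottom). Points are libraries and bars are means of 3. TUBA1A lay at 2.02 to 3.36 CPM in Huh7 control libraries and at 70.3 to 84.3 CPM in A549 control libraries, and TUBA1B and TUBB were lower after P. chinensis in both lines.

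Untreated A549 and Huh7 cells used the same main isotypes and differed in the minor ones. Per kilobase, TUBA1B had the highest level of the members in both lines, at 1721 ± 27 in A549 and 1690 ± 29.8 in Huh7 controls (CPM per kilobase, mean ± SD, n = 3). TUBB followed at 627 ± 12.5 and 697 ± 15.3, TUBB4B at 422 ± 36.1 and 436 ± 7.13, and TUBA1C at 277 ± 19.9 and 249 ± 2.17, in A549 and Huh7 respectively. The ranges of neighbours in this order did not overlap within either line, down to TUBA1C. The order depends on the transcript length assumed. With the mean length of coding transcripts, TUBA1C (413.2 to 475.6) overlapped TUBB4B (381.3 to 449.5) in A549 controls.

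Below these, the order differed. In A549 controls TUBB3 (115 ± 8.94 CPM per kilobase) and TUBG1 (114.5 ± 5.89) overlapped, followed by TUBB6 (53 ± 2.53), TUBA1A (47.6 ± 4.81), TUBB2A (17.3 ± 3.34) and TUBB2B (7.47 ± 1.29). In Huh7 controls TUBG1 (101 ± 1.46) was followed by TUBB6 (77.1 ± 3.82), TUBB2A (43.6 ± 3.55), TUBB3 (28.8 ± 1.98), TUBB2B (18.2 ± 1.54) and TUBA1A (1.61 ± 0.399). TUBA1A was thus the lowest member in Huh7 and ranked eighth in A549. With the mean length of coding transcripts, TUBB6 (164.9 to 179.5) lay above TUBG1 (113.9 to 117.2) in Huh7 controls.

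The test between the lines called 7 of 10 members, 4 higher and 3 lower in A549, where 68.7% of all genes tested were called, 33.8% higher and 34.9% lower. TUBA1A was 28.1-fold higher in A549 controls (log2 difference 4.81 ± 0.16 SE, edgeR quasi-likelihood test, adjusted p = 4.34e-17) and TUBB3 4.05-fold higher (2.02 ± 0.09, adjusted p = 1.43e-14). TUBA1C (0.18 ± 0.07, adjusted p = 0.0364) and TUBG1 (0.20 ± 0.08, adjusted p = 0.025) were higher in A549 by small amounts, and either call was lost without replicate 3 of the A549 control (adjusted p = 0.15 and 0.111), that of TUBA1C also without replicate 2 of it (0.0885) or replicate 3 of the Huh7 control (0.0553). TUBB2A (-1.30 ± 0.16), TUBB2B (-1.26 ± 0.20) and TUBB6 (-0.52 ± 0.07) were lower in A549, with adjusted p from edgeR of 2.79e-07, 7.25e-06 and 1.16e-06. TUBA1B, TUBB and TUBB4B did not pass the test, with log2 differences of 0.05 ± 0.06, -0.13 ± 0.07 and -0.02 ± 0.12.

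Marker genes of neurons and fibroblasts were measured in the same libraries. MAP2, RBFOX3, DCX and SNAP25, the 4 of 6 listed neuronal genes in the table, summed to 36.9 to 45.4 CPM in A549 controls and 50.3 to 56 CPM in Huh7 controls. RBFOX3 was at 0 in Huh7, where MAP2 made up most of the sum (46.1 to 50.7 CPM). In A549 MAP2 stood at 1.25 to 3.44 CPM in controls and at 4.89 to 6.51 CPM with P. chinensis.

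The neuronal sum with P. chinensis was 31.3 to 34.8 CPM in A549 and 50.4 to 58.5 CPM in Huh7, with B. chinense 28.3 to 34.4 and 36.3 to 40 CPM, and after P. umbellatus 30.3 to 35.1 and 54.9 to 68.7 CPM. The 5 fibroblast genes summed to 8.47 to 9.43 CPM in A549 controls, with COL1A2 and COL3A1 at 0, and to 13 to 16.5 CPM in Huh7 controls. With P. chinensis the fibroblast sum was 8.09 to 11 CPM in A549 and 22.4 to 32.3 CPM in Huh7, with B. chinense 6.5 to 9 and 14 to 16.4 CPM, and after P. umbellatus 5.74 to 7.76 and 14.4 to 19.9 CPM. The part of these genes in the tubulin changes was not tested.

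In A549 cells, TUBA1A and TUBB3 rose with each extract, while TUBA1B, TUBA1C, TUBB, TUBB4B and TUBG1 fell with each. With P. chinensis, TUBA1B fell to 0.474 and TUBB to 0.521 of the control level, and TUBA1C, TUBB4B and TUBG1 to 0.71, 0.662 and 0.718. P. chinensis called 7 members, 2 higher and 5 lower, where it called 32.8% of all genes tested, 15.8% higher and 17.1% lower. B. chinense called 8, 3 higher and 5 lower (all genes 28.1%, 13.1% and 15%), and P. umbellatus 7, 2 higher and 5 lower (28.2%, 13.4% and 14.8%). The median log2 change of the members was -0.42, -0.26 and -0.25 with these extracts, and that of all genes between -0.01 and 0.01. Values for the extracts follow in this order below. The 3 comparisons share the same control libraries and are therefore not independent of each other.

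TUBB and TUBA1B, the main β and α genes, carried most of the loss. TUBA1B stood at 2816, 2750 and 2832 CPM in replicates 1 to 3 of the A549 control, at 1408, 1456 and 1209 CPM with P. chinensis, at 1780, 1686 and 1752 CPM with B. chinense and at 1764, 1864 and 1919 CPM with P. umbellatus. Every treated library lay below every control library, and the P. chinensis libraries lay below those of the other extracts. The log2 fold changes of TUBA1B were -1.08 ± 0.06, -0.72 ± 0.06 and -0.66 ± 0.06 (SE), with adjusted p from edgeR of 5.12e-09, 4.34e-07 and 9.72e-07.

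TUBB showed the same pattern. Its level was 1564, 1553 and 1612 CPM in the A549 control libraries, 863, 922 and 735 CPM with P. chinensis, 961, 937 and 1072 CPM with B. chinense, and 1077, 1131 and 1057 CPM with P. umbellatus. No treated library overlapped the control libraries. TUBB changed by -0.94 ± 0.07, -0.71 ± 0.07 and -0.60 ± 0.07 on the log2 scale (adjusted p from edgeR 1.27e-07, 3.65e-06 and 1.7e-05).

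TUBA1A, the minor α gene, moved the other way. In the A549 control it stood at 84.3, 84.1 and 70.3 CPM, and with P. chinensis at 160.4, 160.8 and 161.1 CPM. B. chinense gave 159, 148 and 144 CPM, and P. umbellatus 149, 155 and 154 CPM. All 9 treated libraries lay above the controls, and the rises were 1.98-fold, 1.84-fold and 1.83-fold (log2 0.98, 0.88 and 0.87, each ± 0.07 SE). The adjusted p-values from edgeR were 5.48e-08, 3.34e-07 and 3.08e-07. Per 100 counts of TUBA1B, A549 control libraries held 2.48 to 3.06 counts of TUBA1A and P. chinensis libraries 11 to 13.3.

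TUBB3, the class III β-tubulin gene, rose less. Its A549 control libraries held 188, 186 and 214 CPM, against 251, 266 and 240 CPM with P. chinensis, 309, 293 and 304 CPM with B. chinense, and 274, 268 and 275 CPM with P. umbellatus. Again no treated library overlapped the controls. The log2 changes were 0.33, 0.58 and 0.41, each ± 0.05 SE, with adjusted p from edgeR of 0.000278, 2.2e-06 and 5.23e-05.

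Among the other β genes, TUBB4B fell by 0.59, 0.32 and 0.29 on the log2 scale (each ± 0.06 SE), from 596 to 703 CPM in the A549 control to 413 to 466 CPM with P. chinensis. TUBB2A stood at 21.9 to 32.2 CPM in controls and was called with B. chinense alone, where it reached 38.6 to 41.4 CPM (log2 0.45 ± 0.12, edgeR adjusted p = 0.0121). The other extracts gave TUBB2A changes of 0.20 and 0.26, and B. chinense was not tested against them. P. chinensis against the mean of B. chinense and P. umbellatus was not called for this gene (-0.16 ± 0.11, edgeR adjusted p = 0.493). TUBB2B, at 11.8 to 16.8 CPM in controls, and TUBB6, at 96.2 to 105 CPM, did not pass the test with any extract. Their log2 changes ran from -0.56 to -0.24 for TUBB2B and from 0.04 to 0.09 for TUBB6.

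TUBG1 and TUBA1C fell by moderate amounts. TUBG1, which nucleates microtubules and is not built into their walls, went from 177 to 195 CPM in the A549 control to 131 to 142 CPM with P. chinensis (log2 -0.48 ± 0.05, adjusted p from edgeR 7.65e-06), with changes of -0.23 and -0.30 for the other extracts. TUBA1C fell by 0.49, 0.30 and 0.26 on the log2 scale with the 3 extracts, each ± 0.06 SE. In A549, each call of the comparisons with control held under every alternative processing and after leaving out any 1 library.

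**Figure D2:**
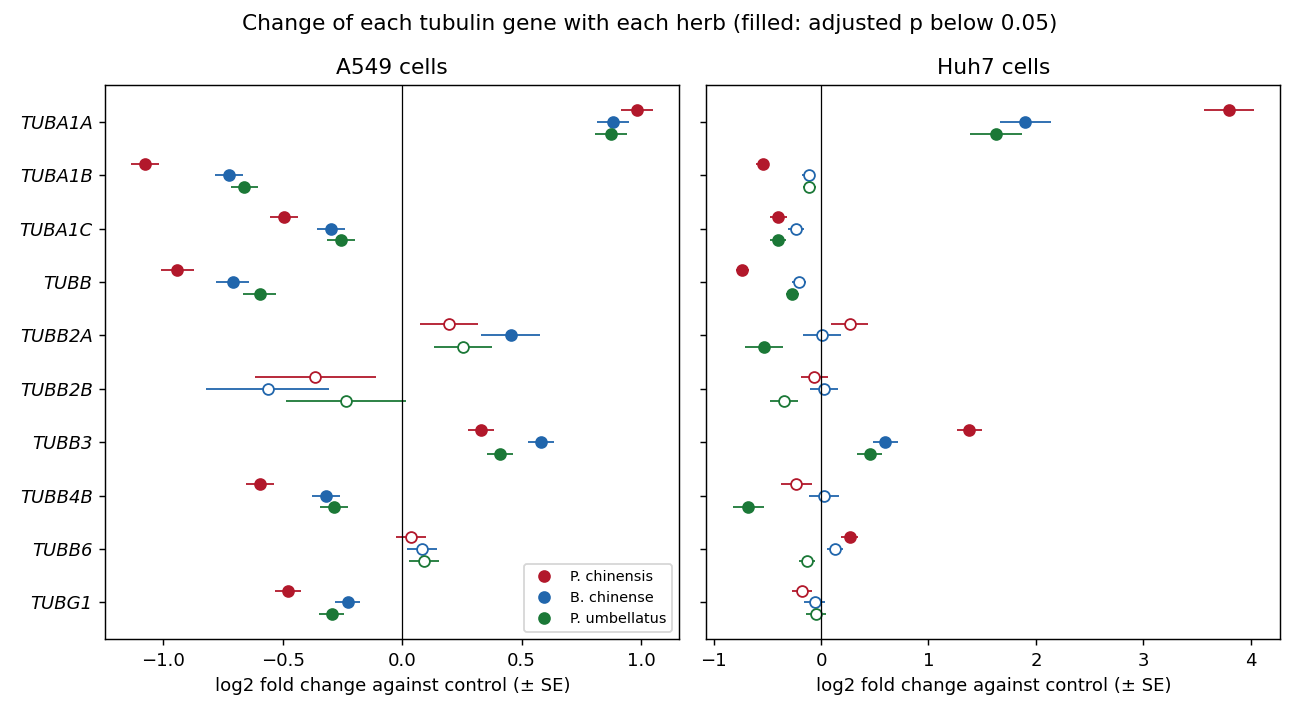
Log2 fold change of each tubulin gene against control with each extract, with its standard error, in A549 cells (left) and Huh7 cells (right, on a wider axis). Filled points passed an adjusted p of 0.05. In A549 the 5 genes TUBA1B, TUBA1C, TUBB, TUBB4B and TUBG1 lie left of 0 with all 3 extracts, and in Huh7 TUBA1A with P. chinensis reaches 3.80.

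In Huh7 cells, TUBA1A and TUBB3 again rose with each extract, and the loss of the main isotypes was called for P. chinensis and, in part, P. umbellatus. P. chinensis called 6 of 10 members, where it called 20.9% of all genes tested (10.5% higher and 10.5% lower), with TUBA1A, TUBB3 and TUBB6 up and TUBA1B, TUBA1C and TUBB down. B. chinense called 2 members, TUBA1A and TUBB3, both up, where 1.28% of all genes were called (0.519% higher and 0.757% lower). P. umbellatus called 6, 2 up and 4 down, where 37% of all genes were called (19.3% and 17.8%). The median log2 change of the members was -0.12, 0.02 and -0.20, and that of all genes between 0 and 0.03. These comparisons share the Huh7 control libraries and 1 estimate of spread. The P. umbellatus libraries differed among themselves by 5.79 to 20.95 times the sampling variance, those within the other Huh7 groups by 2.97 to 3.44 times. The SE and p-values of P. umbellatus may therefore be too small. With only the compared libraries it called 2 members and 8.85% of all genes.

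TUBA1A was nearly silent in Huh7 controls, with 40, 43 and 80 counts in replicates 1 to 3, equal to 2.02, 2.67 and 3.36 CPM. With P. chinensis it reached 36.6, 39.3 and 37.4 CPM, with B. chinense 7.69, 12.4 and 10.8 CPM, and with P. umbellatus 8.91, 5.84 and 9.94 CPM. Every treated library lay above every control, and the P. chinensis libraries lay above the rest. The rises were 13.9-fold, 3.74-fold and 3.09-fold (log2 3.80 ± 0.24, 1.90 ± 0.24 and 1.63 ± 0.24), with adjusted p from edgeR of 6.6e-07, 0.00196 and 0.000937.

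Even at its highest TUBA1A remained a minor gene in Huh7. It held 0.0729 to 0.125 counts per 100 counts of TUBA1B in the controls, 1.99 to 2.13 with P. chinensis, 0.3 to 0.494 with B. chinense and 0.261 to 0.376 with P. umbellatus. What part of the few control counts are reads of TUBA1B assigned to TUBA1A was not tested. The control level of TUBA1A, and so the size of its rise, depends on that division of reads.

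TUBB3 rose 2.6-fold with P. chinensis in Huh7, from 46.8, 53 and 47.6 CPM in the control libraries to 125.5, 121 and 122.5 CPM (log2 1.38 ± 0.12, edgeR adjusted p = 6.82e-06). B. chinense gave 73.5, 70.3 and 76.4 CPM (0.60 ± 0.12, adjusted p = 0.0257), and P. umbellatus 66.7, 50.3 and 76.6 CPM (0.45 ± 0.12, adjusted p = 0.0115). The P. chinensis and B. chinense libraries lay above all controls. Replicate 2 of P. umbellatus lay within the control range, and without it the change was 0.60 ± 0.07.

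The call with B. chinense was lost for TUBB3 when any 1 of 8 libraries was left out, which were the 6 control and B. chinense libraries and replicates 1 and 2 of P. chinensis, with changes of 0.56 to 0.65. TUBB6 rose by 0.27 ± 0.08 with P. chinensis in Huh7 (141 to 153 CPM in controls, 164 to 170 CPM treated, edgeR adjusted p = 0.0288). This call was lost without any 1 of the 9 libraries of the control, P. chinensis and B. chinense (log2 0.23 to 0.29).

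TUBA1B and TUBB fell in Huh7 with P. chinensis. TUBA1B went from 2774, 2782 and 2694 CPM in the control libraries to 1839, 1844 and 1757 CPM, a log2 change of -0.54 ± 0.06 (edgeR adjusted p = 5.07e-05). TUBB went from 1768, 1782 and 1710 CPM to 1001, 1045 and 989 CPM, a change of -0.74 ± 0.06 (adjusted p = 6.82e-06). Control and treated libraries did not overlap for either gene.

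With the other extracts the shifts of these genes in Huh7 were smaller. B. chinense libraries held 2559, 2510 and 2453 CPM of TUBA1B and 1519, 1456 and 1530 CPM of TUBB, all below the controls, with changes of -0.11 ± 0.06 and -0.20 ± 0.06 that did not pass the edgeR test (adjusted p = 0.47 and 0.153). Without replicate 2 of P. umbellatus, which shares the estimate of spread, the B. chinense comparison called 4 members and 6.57% of all genes, TUBB and TUBA1C among the members (adjusted p = 0.00387 and 0.0158). With P. umbellatus, TUBA1B stood at 2485, 2237 and 2645 CPM (-0.11 ± 0.06, adjusted p = 0.16) and TUBB at 1453, 1265 and 1482 CPM (-0.27 ± 0.06, adjusted p = 0.0062).

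TUBA1C, TUBB2A and TUBB4B completed the falls in Huh7. TUBA1C changed from 695 to 705 CPM in controls to 500 to 524 CPM with P. chinensis (-0.40 ± 0.08, edgeR adjusted p = 0.0031) and 450 to 577 CPM with P. umbellatus (-0.40 ± 0.08, adjusted p = 0.00296). TUBB4B with P. umbellatus stood at 423, 287 and 518 CPM against 668, 690 and 684 CPM in the controls (-0.68 ± 0.14, adjusted p = 0.00464), and TUBB2A at 49.8, 29.2 and 61.1 CPM against 64.3, 71.3 and 75.7 CPM (-0.53 ± 0.18, adjusted p = 0.0358). In both genes replicate 2 was the lowest library, and without it the changes were -0.48 and -0.29, both still called. The call of TUBB2A was lost without any 1 of the 3 control libraries or replicate 3 of P. chinensis (-0.59 to -0.47). TUBB2B and TUBG1 did not pass the test with any extract in Huh7. Without replicate 2 of P. umbellatus, P. chinensis called 9 members and 34.9% of all genes in Huh7, with TUBB2A (0.27), TUBB4B (-0.23) and TUBG1 (-0.18) added at edgeR adjusted p-values of 0.0102, 0.00604 and 0.0104.

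The P. umbellatus values of Huh7 moved with the GC content of the transcripts. TUBB3, TUBB4B and TUBB2A have the highest GC content of the members, at 62.2%, 59.3% and 59.3%, and TUBA1C, TUBB and TUBA1A the lowest, at 50.2%, 51.1% and 51.3%. After each library was corrected for GC content and length, TUBA1A (1.65), TUBA1C (-0.46) and TUBB (-0.28) kept their log2 changes and calls. TUBB3 rose by 1.10 instead of 0.45, TUBB4B fell by 0.21 instead of 0.68, and TUBB2A (-0.07, edgeR adjusted p = 0.622) lost its call. TUBG1 went from -0.05 to 0.33 and TUBB6 from -0.13 to 0.21, both then called (adjusted p = 0.00165 and 0.0183). The corrected fit called 7 members and 19.6% of all genes. Which of these values is nearer the cells was not tested.

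P. chinensis was set against the mean of the other extracts within each line, a contrast of treated groups in a fit that also holds the control libraries. In A549, 5 members were lower with P. chinensis and none higher, where 3.57% of all genes tested were called, 2.42% lower and 1.15% higher. These were TUBA1B (-0.38 ± 0.05, edgeR adjusted p = 0.00143), TUBB4B (-0.29 ± 0.05, 0.00807), TUBB (-0.29 ± 0.06, 0.0176), TUBG1 (-0.22 ± 0.05, 0.0199) and TUBA1C (-0.22 ± 0.05, 0.0327). TUBA1A did not differ by this test (0.11 ± 0.06, adjusted p = 0.364). Without replicate 3 of P. chinensis, its lowest library for TUBA1B and TUBB, the call of TUBA1B alone remained, where 0.858% of all genes were called, and the log2 differences were -0.31 for TUBA1B, -0.24 for TUBB4B, -0.21 for TUBB and TUBG1 and -0.15 for TUBA1C. The call of TUBG1 was also lost without replicate 1 of P. chinensis (-0.19), and that of TUBA1C without replicate 2 of P. chinensis, 1 or 3 of B. chinense, or 2 or 3 of P. umbellatus (-0.23 to -0.20).

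In Huh7, 6 members differed between P. chinensis and the mean of the others, where 21.8% of all genes were called, 9.69% higher and 12.1% lower. TUBA1A was 4.09-fold higher (2.03 ± 0.17, edgeR adjusted p = 3.06e-05) and TUBB3 1.81-fold higher (0.86 ± 0.10, 0.000154). TUBB (-0.50 ± 0.05, 0.000117) and TUBA1B (-0.43 ± 0.05, 0.000223) were lower. TUBB2A (0.52 ± 0.15, 0.026) and TUBB6 (0.27 ± 0.07, 0.0148) were higher. Either call was lost without any 1 of the P. chinensis libraries, and that of TUBB2A also without any 1 of the B. chinense libraries. After the GC and length correction TUBB2A gave 0.29 (adjusted p = 0.0151) and TUBB6 0.09 (adjusted p = 0.182).

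Whether the lines responded differently was tested as the difference of the log2 changes, A549 minus Huh7, in 12924 genes measured in both. With P. chinensis 3 members differed, all lower, where 19.6% of all genes did (10.3% higher and 9.3% lower). On the log2 scale TUBA1A (-2.74 ± 0.20, edgeR adjusted p = 3.26e-09) and TUBB3 (-0.99 ± 0.13, 6.59e-06) rose less in A549, and TUBA1B (-0.48 ± 0.09, 0.000392) fell more. In CPM, control libraries of TUBA1A held 70.25 to 84.28 in A549 and 2.02 to 3.36 in Huh7. Its P. chinensis libraries held 160.4 to 161.1 and 36.6 to 39.32 CPM, so that the gain in CPM was larger in A549. With B. chinense 3 members differed, all lower, where 11.6% of all genes did (5.8% higher and 5.8% lower), TUBA1A (-0.97 ± 0.22, 0.00337), TUBA1B (-0.57 ± 0.09, 0.000129) and TUBB (-0.46 ± 0.10, 0.00331). TUBB with P. chinensis did not differ between the lines by this test (-0.15 ± 0.10, adjusted p = 0.325).

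With P. umbellatus 5 members differed, 3 higher and 2 lower, where 34.4% of all genes did (19.1% higher and 15.3% lower). TUBA1A (-0.67 ± 0.23, edgeR adjusted p = 0.0192) and TUBA1B (-0.47 ± 0.09, 0.000388) had the direction seen with the other extracts. TUBB2A (0.87 ± 0.23, 0.00618), TUBB4B (0.47 ± 0.17, 0.0313) and TUBB6 (0.30 ± 0.10, 0.0239) were higher in A549 relative to Huh7. After the GC and length correction the differences of TUBB4B (-0.01) and TUBB6 (-0.05) were near 0 and uncalled, and that of TUBB3 became -0.65 (adjusted p = 4.33e-06). The Huh7 change of TUBB2A, which enters its difference, was itself near 0 and uncalled after this correction.

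The isotype make-up of the tubulin mRNA pool is given as each gene's share of the summed level per kilobase of its family, the α family including TUBA4A, TUBA8 and TUBAL3 and the β family TUBB4A. No test was run on the shares, which depend on the transcript length assumed. In A549 controls, TUBA1B made up 80.1% ± 0.785 of the α pool, TUBA1C 12.9% ± 0.836, TUBA4A 4.56% ± 0.155 and TUBA1A 2.22% ± 0.254 (SD, n = 3). With P. chinensis TUBA1B stood at 68.3% ± 1.14 and TUBA1A at 7.92% ± 0.703, and the other extracts gave 72.1% and 72.3% for TUBA1B and 6.07% and 5.8% for TUBA1A. The treated ranges did not overlap the control range for either gene.

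In the β pool of A549, TUBB went from 50.2% ± 1.6 in controls to 38.8% ± 1.56, 38.7% ± 2.25 and 41.2% ± 1.34 with the extracts in the same order. TUBB3 went from 9.19% ± 0.425 to 17.2% ± 0.629, 17.4% ± 0.47 and 15.2% ± 0.263. TUBB4B, the second β gene, kept its share, at 33.8% ± 1.62 in controls and 33.3% to 34.3% with the extracts.

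In Huh7 controls the α pool was 86.1% ± 0.2 TUBA1B and 12.7% ± 0.0871 TUBA1C, with TUBA1A at 0.0819% ± 0.0215. P. chinensis moved TUBA1B to 83.6% ± 0.19 and TUBA1A to 1.7% ± 0.0646. In the β pool TUBB went from 53.6% ± 0.838 to 40.7% ± 0.936 and TUBB3 from 2.21% ± 0.114 to 7.3% ± 0.182, while TUBB2A (3.35% to 5.1%) and TUBB6 (5.92% to 9.01%) also took larger shares. B. chinense moved TUBB to 48.8% ± 0.34 and TUBB3 to 3.52% ± 0.0911. With P. umbellatus TUBB stood at 58% ± 4.12 and TUBB4B at 26.7% ± 3.85 against 33.5% ± 0.457 in controls, in the libraries with the GC slope.

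**Figure D3:**
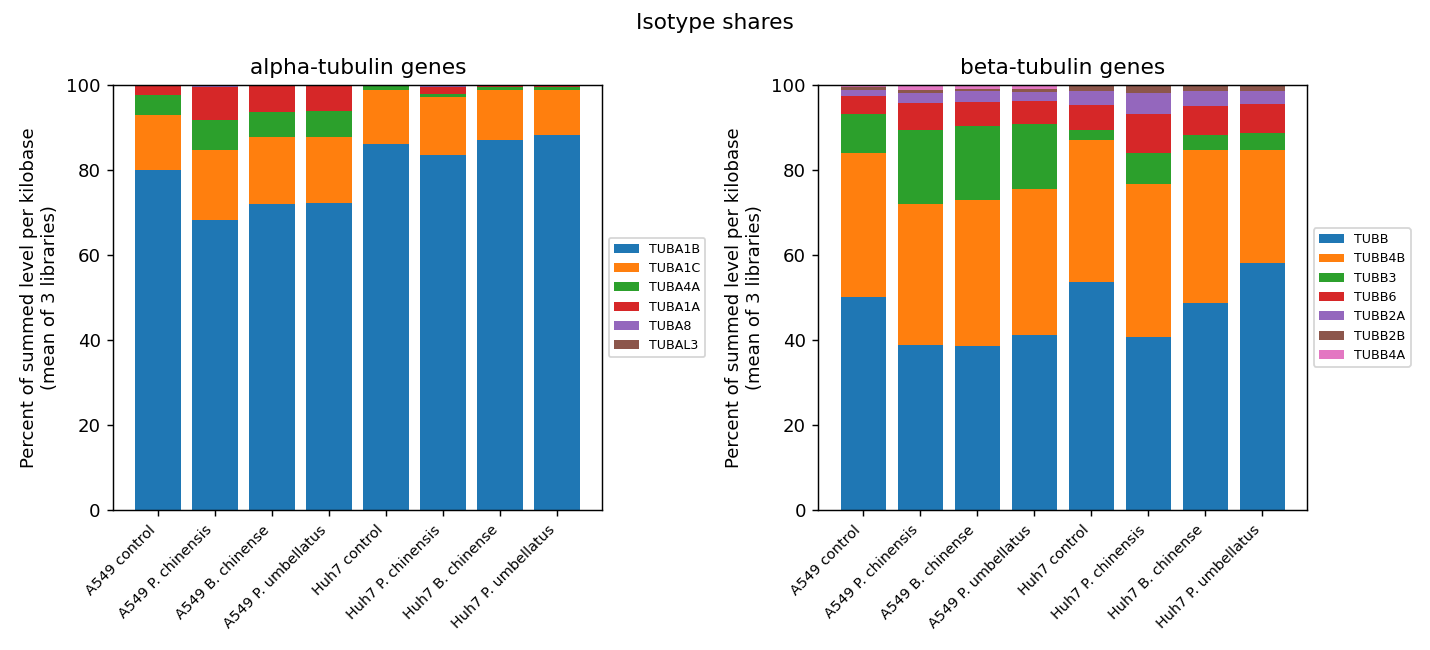
Share of each gene in the summed level per kilobase of the α-tubulin genes (left) and β-tubulin genes (right), in percent, as the mean of 3 libraries in each of the 8 groups. TUBB fell from 50.2% to 38.8% of the β pool in A549 and from 53.6% to 40.7% in Huh7 with P. chinensis, and TUBB3 grew from 9.19% to 17.2% and from 2.21% to 7.3%.

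The summed pools were lower than in controls with each extract. The α genes summed to 2123 to 2185 CPM per kilobase in A549 controls and 1104 to 1286 with P. chinensis, and the β genes to 1195 to 1305 and 785 to 909. In Huh7 the α sums were 1929 to 1983 in controls and 1295 to 1352 with P. chinensis, and the β sums 1286 to 1326 and 983 to 995. The α to β ratio of these sums was 1.67 to 1.79 in A549 controls and 1.41 to 1.44 with P. chinensis, and 1.5 to 1.54 and 1.32 to 1.37 in Huh7. With the other extracts in A549 the α sums were 1438 to 1620, the β sums 1006 to 1055 and the ratio 1.43 to 1.54. In Huh7 B. chinense gave α sums of 1748 to 1809, β sums of 1190 to 1244 and a ratio of 1.41 to 1.48. P. umbellatus gave 1551 to 1852, 806 to 1086 and 1.71 to 1.92 in Huh7, in the libraries with the GC slope. These sums and ratios depend on the transcript length assumed. With the mean length of coding transcripts, TUBA1B stood at 3285 to 3384 CPM per kilobase in A549 controls and TUBB at 575.2 to 597.1. CPM is a share of each library, and a loss of tubulin mRNA cannot be told apart here from a rise of other RNA.

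Of 12 other tubulin genes listed, 7 were tested in each line. With P. chinensis 2 were called in A549, both lower, and 1 in Huh7, lower, where 17.1% and 10.5% of all genes were lower. TUBA4A (-0.24 ± 0.07, edgeR adjusted p = 0.0196) and TUBD1, the δ-tubulin gene (-0.47 ± 0.13, adjusted p = 0.0132), fell in A549, and TUBA4A fell in Huh7 (-0.88 ± 0.17, adjusted p = 0.00262), where the list ran from -0.88 to 1.28. B. chinense called none of them in either line. P. umbellatus called TUBD1 in A549 (-0.55) and TUBA4A (-0.70) and the ε-tubulin gene TUBE1 (0.92) in Huh7, there in the libraries with the GC slope. The GC content was 55.15% for TUBA4A and 38.16% for TUBE1, and its part in these values was not tested.

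Of the γ-tubulin ring complex and the augmin (HAUS) genes that recruit it, 18 were tested, and in A549 11 were lower with P. chinensis, 9 with B. chinense and 7 after P. umbellatus, with none higher. Of all genes 17.1%, 15% and 14.8% were lower. The list median was -0.48 with P. chinensis on the log2 scale, that of all genes 0.01, and the 7 genes not called there included values up to 0.07. The largest fall was that of HAUS8 (-1.42 ± 0.25, edgeR adjusted p = 0.000382). In Huh7, P. chinensis lowered 3 of 18, where 10.5% of all genes were lower, led by HAUS5 (-0.67 ± 0.18, adjusted p = 0.0207), and B. chinense called none. P. umbellatus called 4 higher and 3 lower (all genes 19.3% and 17.8%), and after the GC and length correction 1 and 1 (all genes 5.73% and 13.9%).

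Tubulin folding depends on the CCT chaperonin, prefoldin and the tubulin cofactors. Of 21 such genes tested, A549 had 7, 8 and 7 lower with the extracts in the same order and none higher, where 17.1%, 15% and 14.8% of all genes were lower. With P. chinensis 6 of the 7 were subunits of CCT, TCP1 being the most reduced (-0.44 ± 0.05, edgeR adjusted p = 4.55e-06), and the other was the cofactor TBCD. In Huh7, P. chinensis raised 3 of 21, near the 10.5% of all genes raised, with PDCL3, a CCT cofactor, at 0.70 ± 0.13 (adjusted p = 0.00179), and B. chinense called none. P. umbellatus in Huh7 raised 2 and lowered 1, where 19.3% of all genes were higher and 17.8% lower.

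Among enzymes that modify tubulin, P. chinensis raised 5 and lowered 2 of 20 tested in A549, a share near the 32.8% of all genes called. Of the called genes, TTLL3, a tubulin glycylase, rose most (0.92 ± 0.20, edgeR adjusted p = 0.00181). VASH2, which removes the terminal tyrosine of α-tubulin, fell most (-1.45 ± 0.19, adjusted p = 3.01e-05). In Huh7 1 of 19 was called with P. chinensis, where 20.9% of all genes were called, the polyglutamylase gene TTLL1 (1.16 ± 0.28, adjusted p = 0.0101).

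Of 12 genes of tubulin mRNA autoregulation tested in A549, P. chinensis lowered 4 and raised none, where 32.8% of all genes were called and 17.1% lower. These belong to the CCR4-NOT complex: CNOT9 (-0.41 ± 0.05, edgeR adjusted p = 2.35e-05), CNOT6L (-0.35), CNOT10 (-0.31) and CNOT7 (-0.27). B. chinense lowered the same 4, with log2 changes of -0.31 for CNOT9, -0.35 for CNOT6L, -0.41 for CNOT10 and -0.18 for CNOT7, and P. umbellatus lowered CNOT9 (-0.28) and CNOT7 (-0.15), where 15% and 14.8% of all genes were lower. The adaptor genes TTC5 and SCAPER were not called in A549 with any extract.

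In Huh7, P. chinensis lowered 2 of these 12 genes, CNOT11 (-0.54) and CNOT6L (-0.48), where 10.5% of all genes were lower, and B. chinense called none. P. umbellatus raised TTC5 (0.38), CNOT1 (0.30), CNOT2 (0.34) and CNOT7 (0.29) and lowered CNOT3 (-0.58) and CNOT11 (-0.31), where 19.3% of all genes were higher and 17.8% lower. After the GC and length correction the counts were 0 raised and 4 lowered, with 5.73% and 13.9% of all genes.

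Of 34 microtubule regulators tested in A549, P. chinensis raised 7 and lowered 12, where 15.8% of all genes were higher and 17.1% lower. The largest fall was NUSAP1 (-1.67 ± 0.13, edgeR adjusted p = 2.3e-07), a spindle protein, and the largest rise MAP2 (1.20 ± 0.34, adjusted p = 0.0109), a microtubule-associated protein of neurons that held 10 to 35 counts in the A549 controls. B. chinense and P. umbellatus each raised 5 and lowered 12 (all genes 13.1% and 15%, and 13.4% and 14.8%).

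In Huh7, P. chinensis raised 5 of 32 regulators and lowered 5 (all genes 10.5% each way), with STMN3, a relative of the tubulin-binding protein stathmin, at 0.72 ± 0.23 (edgeR adjusted p = 0.037) and MAP1A at -0.48 ± 0.12 (adjusted p = 0.0137), and B. chinense lowered MAP2 (-0.53) alone. P. umbellatus raised 14 and lowered 6 (all genes 19.3% and 17.8%), and after the GC and length correction 3 and 3 (all genes 5.73% and 13.9%). Over the members and lists together, the genes raised by P. umbellatus in Huh7 had a median GC content of 41.8% and the genes lowered 59.3%. With P. chinensis in Huh7 the medians were 46.8% and 50.6%. In A549, whose libraries had GC slopes of -0.047 to 0.072, the order was the other way with each extract. The medians there were 55.7% to 56.7% for raised genes and 43.1% to 44.4% for lowered genes. These gaps were not tested.

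**Figure D4:**
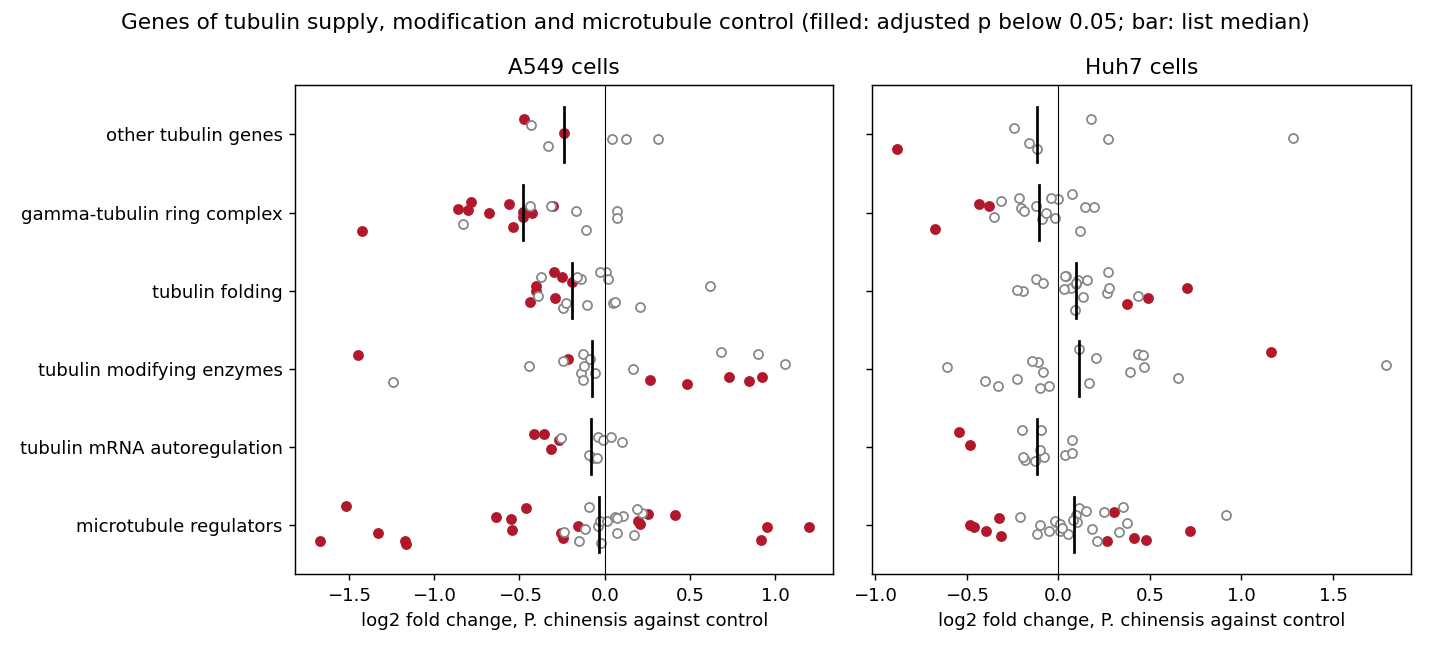
Log2 fold change with P. chinensis of the genes in 6 fixed lists around tubulin, in A549 cells (left) and Huh7 cells (right). Filled points passed an adjusted p of 0.05 and black bars are list medians. The γ-tubulin ring complex list has its median at -0.48 in A549 and -0.10 in Huh7.

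Which genes followed each isotype most closely is given as a description, from Pearson's r of log2(CPM + 1) over the 24 libraries after each line was centred on its own mean, among 11098 genes. The libraries share their treatment groups, so that r mostly reflects the group means. Levels were not corrected for GC content here and include the P. umbellatus libraries of Huh7 with the GC slope. The part of that slope in r was not tested. TUBA1B was closest to TICRR (0.976), E2F8 (0.968) and MCM3 (0.965), genes known from the initiation and control of DNA replication. TUBB was closest to SMC1A (0.975), TICRR (0.969) and UHRF1 (0.958), and TUBG1 to WDR62 (0.878), MCM5 (0.87) and PGD (0.859). TUBA1A was closest to HMOX1 (0.953), the stress-induced heme oxygenase, PLK2 (0.95) and THSD4 (0.94), and TUBB3 to KLF4 and AQP3 (both 0.917) and CCN1 (0.916).

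The remaining members followed other genes. Of these, TUBB4B and TUBB2A had the highest GC content, and replicate 2 of P. umbellatus was their lowest Huh7 library. TUBB4B was closest to KHSRP (0.97), SAMD1 (0.962) and TRIM28 (0.953), TUBB2A to INO80B (0.949), AP2M1 (0.943) and TAX1BP3 (0.938), TUBA1C to SIRPA (0.941), ZNRF3 (0.938) and GANAB (0.923), and TUBB6 to CHST3 (0.912), FXR2 (0.904) and OTUD7B (0.895). TUBB2B had no near follower, its highest being SCAMP3 at 0.776, followed by PACSIN2 (0.717) and NOL10 (0.713). Among the members themselves within A549, TUBA1B and TUBB had r of 0.984 over 12 libraries, and TUBA1A had -0.9 with TUBA1B.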

How the data were processed

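Total RNA of 24 samples, depleted of ribosomal RNA, was sequenced with a stranded kit. The authors quantified reads with kallisto (version not given in the sources used here) against Ensembl cDNA of GRCh38.p13 (v108) and deposited 1 table of estimated counts, whole numbers for 14585 genes; all 24 columns were used. Of these, 14584 identifiers matched GENCODE v44, from which positions, lengths, GC content and sequences were taken. Genes with a mean above 5 counts in a line were tested with the quasi-likelihood test of edgeR 4.0.16 (R 4.3.3, TMM, two-sided, prior count 2), fitted on all 12 libraries of a line, or on all 24 for differences between lines, with Benjamini-Hochberg adjustment over all genes tested and a threshold of 0.05. Fits were tested on simulated data. Changes are log2 fold changes ± SE, and levels CPM means ± SD.

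Named are all 10 members, in each list the called gene with the largest rise and the largest fall with P. chinensis in each line, every called gene of the autoregulation and other-tubulin lists, and the 3 genes closest to each member in r; a few others are named for their role. Members and lists were chosen with earlier results of these data known. Replicate numbers do not pair libraries (correlation of same-numbered residuals -0.071 to 0.086). Alternatives were RLE and upper quartile scaling, DESeq2 1.42.0, voom of limma 3.58.1 with quality weights, no filter or a mean above 20 counts, a fit on the compared libraries, a replicate block, a GC and length correction, other transcript lengths, and leaving out each library. Counting error limits low genes most, TUBA1A in Huh7 above all. Some α-tubulin sequences are not reported here.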

Additional observations from a re-analysis of the deposited data

Results flagged for a closer look

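These members responded differently in A549 and Huh7 by the test of the difference itself (A549 minus Huh7, log2, edgeR, adjusted p below the threshold), and no explanation was tested. With P. chinensis the differences were -2.74 for TUBA1A, -0.99 for TUBB3 and -0.48 for TUBA1B. TUBA1A rose in all 6 treated libraries of both lines, and its control level in Huh7 rests on 40 to 80 counts. B. chinense gave -0.97 for TUBA1A, -0.57 for TUBA1B and -0.46 for TUBB. P. umbellatus gave -0.67 for TUBA1A, -0.47 for TUBA1B, 0.87 for TUBB2A, 0.47 for TUBB4B and 0.30 for TUBB6, of which that of TUBB4B lost its call when any 1 of 12 libraries was left out and that of TUBB6 when any 1 of 13 was, the lowest values being those without replicate 2 of P. umbellatus in Huh7 (0.23 and 0.18). Both also lost it after the GC and length correction. The Huh7 change of TUBB2A with P. umbellatus, which enters its difference, was itself near 0 after that correction. The difference of TUBA1A with P. umbellatus lost its call without replicate 1 of the Huh7 control (-0.55) or replicate 3 of P. umbellatus in Huh7 (-0.56).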

How the results depend on the processing

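Over 1080 gene values under other settings, 993 kept their direction and their side of the threshold. With their direction kept, 48 gained a call and 17 lost one. The other 22 turned, and some of these also gained or lost a call. In Huh7 B. chinense called 5 members and 8.86% of all genes with voom, 5 and 8.09% with only the compared libraries, and 1 and 0.836% with the replicate block (1.28% as reported), and P. umbellatus 2 and 8.85% with only the compared libraries (37% as reported). Calls of the difference between lines were 5 with voom, with only the compared libraries and after the GC and length correction, both for P. chinensis (31.1%, 30% and 25.1% of all genes, 19.6% as reported) and for B. chinense (19.2%, 18.2% and 17.3%, 11.6% as reported), and 3 for P. umbellatus with only the compared libraries (23.5%, 34.4% as reported). The replicate block, under which TUBB3 with B. chinense (adjusted p = 0.0527) and TUBB6 with P. chinensis (0.0517) in Huh7 and TUBA1C in A549 between extracts (0.0685) lost their calls, changed no other call. TUBA1B and TUBB made up 81.1% and 47.3% of their pools in A549 controls and 86.3% and 50.2% in Huh7 controls with the longest transcript, and 83%, 42.9%, 88.1% and 47.6% with the mean length of coding transcripts.

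Values that turned were mostly near 0. TUBB4B between controls gave 0.0137 with RLE scaling, 0.0136 with DESeq2, 0.0456 with upper quartile scaling and 0.0026 with a mean above 20 counts. With voom TUBG1 in Huh7 with P. umbellatus gave 0.0555, TUBB2B between extracts in A549 -0.10, and the differences between lines 0.0036 for TUBB6 (B. chinense) and -0.0361 for TUBB3 (P. umbellatus). The TUBB6 difference gave 0.0105 without a filter and 0.005 with a mean above 20 counts, that of TUBB2A with P. chinensis 0.0178 without a filter, and that of TUBB3 with P. umbellatus -0.0046 with only the compared libraries. After the GC and length correction, P. umbellatus in Huh7 gave 0.21 for TUBB6 and 0.33 for TUBG1, and P. chinensis against the others in Huh7 -0.0573 for TUBB2B and -0.14 for TUBB4B. The differences between lines were then -0.10 for TUBB3 with B. chinense, and with P. umbellatus -0.11 for TUBB2B, -0.65 for TUBB3, -0.0062 for TUBB4B and -0.0501 for TUBB6, and TUBA1B between controls was -0.0469. The cause was not tested.

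Leaving out 1 library at a time gave 1 to 6 calls for P. chinensis against the others in A549 (0.858% to 3.77% of all genes, both lowest without replicate 3 of P. chinensis), 1 to 4 for B. chinense in Huh7 (0.368% to 6.57%, both highest without replicate 2 of P. umbellatus), and for the difference between lines 3 to 6 with P. chinensis (16.4% to 27.4%), 3 to 5 with B. chinense (8.74% to 18.7%) and 3 to 6 with P. umbellatus (28.9% to 42.6%). Of 1920 gene values, 34 turned, in 14 results, all uncalled. Differences between lines ranged from -0.15 to 0.12 for TUBB3 with P. umbellatus, -0.0404 to 0.0898 for TUBB3, -0.0582 to 0.0478 for TUBB6 and -0.0843 to 0.0135 for TUBA1C with B. chinense, and -0.15 to 0.0935 for TUBB2A, -0.49 to 0.0109 for TUBB2B and -0.10 to 0.0255 for TUBA1C with P. chinensis. In Huh7, B. chinense gave -0.0402 to 0.0713 for TUBB2B and -0.0506 to 0.0675 for TUBB2A, P. umbellatus -0.12 to 0.0693 for TUBG1, and P. chinensis against the others -0.002 to 0.19 for TUBB4B. Against the others in A549, TUBB2B ranged from -0.21 to 0.30 and TUBB6 from -0.086 to 0.001. TUBB4B between controls ranged from -0.0671 to 0.0388.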

Other observations

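Within the β genes, TUBB3 gained on TUBB in every treated library. Per 100 counts of TUBB, A549 libraries held 12 to 13.3 counts of TUBB3 in controls, 28.8 to 32.7 with P. chinensis, 28.3 to 32.1 with B. chinense and 23.7 to 26 after P. umbellatus. In Huh7 the ranges were 2.65 to 2.97 in controls, 11.6 to 12.5 with P. chinensis, 4.83 to 4.99 with B. chinense and 3.98 to 5.17 after P. umbellatus. No treated range overlapped that of its controls. No test was run on these ratios.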
